A study of Homo sapiens with 10 samples.

Results

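The regions described here are the widest stretches of methylated DNA in HEK293T cells, an established human embryonic kidney cell line. They were chosen by width alone: every deposited MeDIP peak of 2500 bp or more on chromosomes 1 to 22 and X was taken from 5 peak lists, and overlapping ones were merged. This gave 2537 broad regions out of 144156 merged regions of any width (1.76%), spanning 10.5 Mb, with a median width of 3175 bp. MeDIP-seq enriches sheared genomic DNA with an anti-5mC antibody and sequences it. The 5 conditions were K-KD (the knockdown of KCNQ1OT1_K), K rep KO, K non-rep KO, EV and WT, each with 1 immunoprecipitated library, 1 input library and 1 peak list. All are HEK293T cells grown alike. The labels spell out neither EV, K, rep nor non-rep, and give no agent, guide or clone number, so the names are kept as written and EV and WT are read as the unperturbed cells. There are no replicates, so no value below has an error from repeated samples and no difference was tested. Intervals, where given, cover counting error only.

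Cytosine methylation in human cells sits mainly on CpG dinucleotides, is copied at replication by the maintenance methyltransferase DNMT1, and is densest over repeated DNA such as satellites, over silenced germline genes and along transcribed gene bodies. CpG-rich promoters of active genes usually stay free of it. KCNQ1OT1 is a long non-coding RNA of an imprinted domain on chromosome 11, known for silencing neighbouring genes on the paternal chromosome. Because the antibody binds best to fragments with several methylated cytosines, MeDIP signal follows both methylation and the local number of CpGs, and the width of a peak also depends on read depth.

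Of 34961 RefSeq promoter windows (250 bases before to 50 after a gene's start, GRCh38.p14), 63 lay wholly inside a broad region, and these are where a broad peak can be read letter by letter. The 7 printed here, read 5′ to 3′ on the gene's strand with every CG in capitals, were taken to show windows covered in all lists (ZNF875, NLRP2, E4F1) and windows whose coverage differed between lists (MAGEA4, ZNF461, LHX9, GNMT).
ZNF875 promoter, chr19:37317632-37317931, plus strand: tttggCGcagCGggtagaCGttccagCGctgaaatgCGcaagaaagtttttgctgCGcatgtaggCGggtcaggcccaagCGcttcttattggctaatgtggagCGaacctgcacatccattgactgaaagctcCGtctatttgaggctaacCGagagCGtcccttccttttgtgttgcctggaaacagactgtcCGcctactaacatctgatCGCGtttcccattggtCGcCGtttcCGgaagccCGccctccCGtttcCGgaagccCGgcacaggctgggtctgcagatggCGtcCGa
NLRP2 promoter, chr19:54965034-54965333, plus strand: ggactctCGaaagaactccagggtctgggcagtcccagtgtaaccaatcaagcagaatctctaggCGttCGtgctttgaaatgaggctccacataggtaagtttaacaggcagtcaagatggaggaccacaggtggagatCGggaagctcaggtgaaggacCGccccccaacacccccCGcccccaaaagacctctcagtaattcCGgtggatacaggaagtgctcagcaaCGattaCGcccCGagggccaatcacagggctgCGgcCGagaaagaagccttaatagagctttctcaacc
E4F1 promoter, chr16:2223341-2223640, plus strand: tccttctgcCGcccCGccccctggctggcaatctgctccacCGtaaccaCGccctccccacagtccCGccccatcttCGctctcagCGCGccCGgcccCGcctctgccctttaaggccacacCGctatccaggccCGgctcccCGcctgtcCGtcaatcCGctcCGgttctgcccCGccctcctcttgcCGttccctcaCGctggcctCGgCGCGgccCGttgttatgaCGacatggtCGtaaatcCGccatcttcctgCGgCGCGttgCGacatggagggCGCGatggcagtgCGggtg
MAGEA4 promoter, chrX:151915987-151916286, plus strand: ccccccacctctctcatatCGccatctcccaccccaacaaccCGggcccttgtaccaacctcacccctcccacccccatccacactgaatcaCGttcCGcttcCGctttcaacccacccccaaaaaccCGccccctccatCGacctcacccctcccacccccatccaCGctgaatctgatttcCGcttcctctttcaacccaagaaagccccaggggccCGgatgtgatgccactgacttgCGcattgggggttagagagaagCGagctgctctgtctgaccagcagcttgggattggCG
ZNF461 promoter, chr19:36666788-36667087, minus strand: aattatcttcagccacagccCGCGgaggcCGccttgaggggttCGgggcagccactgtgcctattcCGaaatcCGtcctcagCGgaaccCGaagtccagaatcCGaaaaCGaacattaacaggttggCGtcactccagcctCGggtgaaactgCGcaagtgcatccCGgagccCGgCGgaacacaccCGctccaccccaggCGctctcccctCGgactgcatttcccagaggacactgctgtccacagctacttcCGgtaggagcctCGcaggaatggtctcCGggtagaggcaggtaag
LHX9 promoter, chr1:197912214-197912513, plus strand: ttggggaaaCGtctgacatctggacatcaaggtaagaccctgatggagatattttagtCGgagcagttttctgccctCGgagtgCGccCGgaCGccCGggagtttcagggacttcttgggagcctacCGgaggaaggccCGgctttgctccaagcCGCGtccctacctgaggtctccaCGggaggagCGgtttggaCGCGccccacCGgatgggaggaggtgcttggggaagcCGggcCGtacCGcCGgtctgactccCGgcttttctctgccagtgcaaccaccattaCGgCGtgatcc
GNMT promoter, chr6:42960504-42960803, plus strand: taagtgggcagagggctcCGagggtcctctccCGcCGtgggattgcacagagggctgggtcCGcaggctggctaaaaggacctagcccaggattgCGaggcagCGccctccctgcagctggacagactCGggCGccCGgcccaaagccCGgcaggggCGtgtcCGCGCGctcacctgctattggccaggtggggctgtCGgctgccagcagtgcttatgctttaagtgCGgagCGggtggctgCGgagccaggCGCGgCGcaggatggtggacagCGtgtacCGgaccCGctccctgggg

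ZNF875 encodes a KRAB-type zinc finger protein, NLRP2 a NOD-like receptor family protein, and E4F1 a zinc finger transcription factor of the cell cycle. All 300 bases of their windows, with 24, 12 and 33 CpGs, lay under a peak in K-KD, K rep KO, K non-rep KO, EV and WT. The MAGEA4 window, the promoter of a cancer-testis antigen silent in most adult tissues, holds 13 CpGs and was covered over 0 bases in K-KD and both knockouts and over 300 bases in EV and WT. ZNF461, another zinc finger gene, has 22 CpGs in its window, which was covered over 300 bases in EV and 0 in the other 4 lists. LHX9, a LIM homeobox gene of limb and gonad development, has 23 CpGs in its window. That window was covered over 300 bases in K-KD, 266 in K rep KO, 300 in K non-rep KO, 300 in EV and 0 in WT. GNMT encodes glycine N-methyltransferase, an enzyme that consumes the methyl donor S-adenosylmethionine. Its window, with 24 CpGs, was covered over 300 bases in K-KD, 0 in K rep KO, 78 in K non-rep KO, 132 in EV and 0 in WT. A base outside a peak is one at which the caller reported no enrichment, which is not the same as an unmethylated base.

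The number of broad peaks and their share of each list differed between lists. K-KD held 1013 of 53919 peaks at 2500 bp or more (1.88%, Wilson interval 1.77 to 2.00), K rep KO 1428 of 59098 (2.42%, 2.30 to 2.54), and K non-rep KO 1085 of 53396 (2.03%, 1.92 to 2.16). EV held 1566 of 87815 (1.78%, 1.70 to 1.87) and WT 1311 of 30732 (4.27%, 4.05 to 4.50). The median peak of any width was 505 bp in K-KD, 513 bp in K rep KO, 506 bp in K non-rep KO, 522 bp for EV and 748 bp for WT. WT thus had the shortest list, the highest broad share and the widest median peak. Broad peaks made up 9.79% of the covered length in K-KD, 12.8% in K rep KO, 10.0% in K non-rep KO, 9.11% in EV and 16.7% in WT. Their own median width was nearly alike, at 3153 bp in K-KD, 3209.5 bp in K rep KO, 3121 bp in K non-rep KO, 3109 bp in EV and 3170 bp in WT. The threshold cuts a continuous distribution: the narrowest peaks kept were 2500 or 2501 bp wide in each list and the widest left out were 2497 to 2499 bp. K-KD had 91 peaks up to 100 bp above the threshold and 91 up to 100 bp below it, and EV had 150 and 236.

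**Figure D1:**
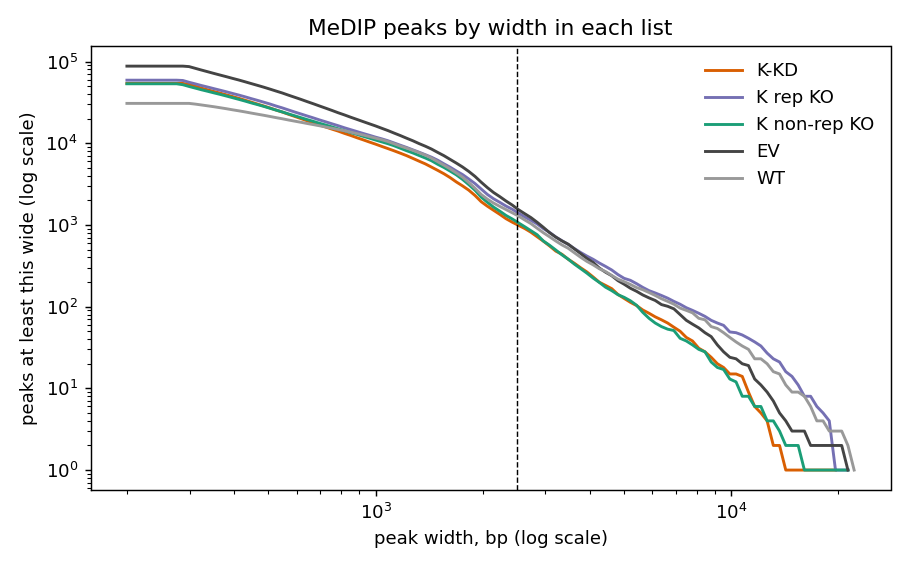
Number of MeDIP peaks (vertical axis, log scale) at least as wide as the width on the horizontal axis (bp, log scale), one line per list, with a dashed line at 2500 bp. EV has the most peaks at the threshold (1566), K rep KO and WT keep the most of the widest peaks, and no line has a break at 2500 bp.

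The calls rest on few reads. The deposited fold enrichment and −log10 p of a peak give a whole-number summit pileup for at least 99.9% of the peaks of each list. Among broad peaks on chromosome arms the median summit pileup was 30 reads in K-KD, 34 in K rep KO, 29 in K non-rep KO, 30 in EV and 36 in WT, and the lowest of any broad peak was 9 or 10. The local background at these summits had a median of 3.88 reads in K-KD, 3.24 in K rep KO, 2.83 in K non-rep KO, 3.01 in EV and 5.00 in WT. It was higher in the centromeric bands, at 6.92 reads in K-KD, 5.84 in K rep KO, 4.52 in K non-rep KO, 6.02 in EV and 7.86 in WT, and higher again on the short arms of the acrocentric chromosomes, where it lay between 25.3 reads in K rep KO and 61.1 in WT. Its part in the peak widths was not tested. By the authors' own values within each list, the median fold enrichment of broad peaks against all peaks was 4.71 against 4.18 in K-KD, 5.89 against 4.39 in K rep KO, 5.90 against 4.44 in K non-rep KO, 5.83 against 4.30 in EV and 4.85 against 4.08 in WT.

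As deposited, most broad regions had a peak in every list. A peak of some width lay in all 5 lists at 2161 of the 2537 regions (85.2%), beside 7.97% of all merged regions. That contrast follows in part from the choice, since a wide region can be hit by more peaks. It also depends on weak peaks: with a −log10 q of at least 5 the share was 48.1%, with a fold enrichment of at least 4 it was 36.2%, and 45.3% of the regions were covered over at least 50% of their length in every list. The same width was reached less evenly: 1123 regions were broad in 1 list, 463 in 2, 283 in 3, 273 in 4 and 395 in all 5. K-KD had a broad peak at 927 regions, only narrower ones at 1464 and none at 146. K rep KO had 1344, 1113 and 80 of these, and K non-rep KO had 1009, 1403 and 125. EV had 1468, 1013 and 56, and WT had 1217, 1188 and 132. A peak of any width lay at 35.6% of all merged regions in K-KD, 39.2% in K rep KO, 35.3% in K non-rep KO, 59% in EV and 20.3% in WT.

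Regions broad in all 4 other lists show how often a list keeps the width, and their choice does not use that list. K-KD was broad at 395 of 510 such regions (77.5%, Wilson interval 73.6 to 80.9), K rep KO at 395 of 412 (95.9%, 93.5 to 97.4) and K non-rep KO at 395 of 460 (85.9%, 82.4 to 88.8). EV was broad at 395 of 427 (92.5%, 89.6 to 94.6) and WT at 395 of 439 (90.0%, 86.8 to 92.4). K-KD had the lowest share of the 5 lists. On the arms the lists were broad at 182 of 242 such regions in K-KD, 182 of 191 in K rep KO, 182 of 195 in K non-rep KO, 182 of 191 in EV and 182 of 201 in WT. In the bands they were broad at 200 of 255 in K-KD, 200 of 208 in K rep KO, 200 of 252 in K non-rep KO, 200 of 223 in EV and 200 of 224 in WT, so K-KD was close to K non-rep KO there. Neighbouring regions are not independent, and these shares compare libraries, not conditions. Of the 115 regions where K-KD fell short, 114 had narrower K-KD peaks and 1 had none. Even at the 395 regions broad everywhere, the K-KD list was more broken up, with 1.98 peaks per region against 1.51 in K rep KO, 1.86 in K non-rep KO, 1.70 in EV and 1.58 in WT.

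**Figure D2:**
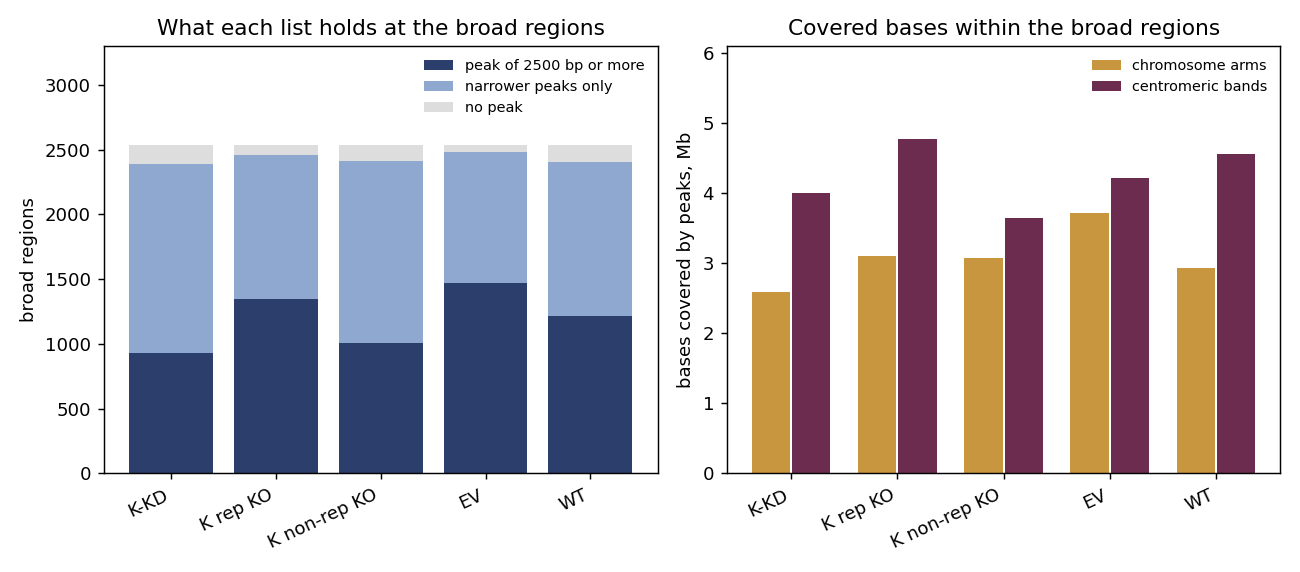
Left, the number of the 2537 broad regions (vertical axis) at which each list (horizontal axis) has a peak of 2500 bp or more, only narrower peaks, or none. Right, the bases of these regions under peaks (Mb) on chromosome arms and in centromeric bands. K-KD has the fewest broad regions (927) and the least arm coverage (2.58 Mb), EV the most of both (1468 and 3.71 Mb), and K non-rep KO the least coverage in the bands (3.64 Mb).

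The broad regions were concentrated at centromeres. There were 1257 in the centromeric bands (49.5%), where 7.31% of all merged regions lay, and 38 on acrocentric short arms (1.5%, beside 0.298%). The remaining 1242 (49.0%) were on chromosome arms, beside 92.4% of all merged regions. Together 1295 regions (51.0%) belonged to the centromeric zone, and 8 of these overlapped an annotated gene. The bands hold alpha satellite and related repeats, tandem arrays on which the kinetochore is built. Their copies are nearly alike, so reads cannot be placed on single copies with certainty, and a peak there stands for an array, not for an exact position. The median region was 3436 bp wide in the bands and 3012 bp on the arms.

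The widest regions were in the band of chromosome 16. Of the 10 regions with the widest single peak, 9 lay there and 1 was on chromosome 10. The region chr16:38143104-38166293 held the widest peak of all, a single WT peak of 22823 bp. The same 23190 bp were covered over 17353 bp in K-KD, 20148 in K rep KO, 14259 in K non-rep KO, 16580 in EV and 22823 in WT. K non-rep KO had the least coverage there. A neighbour, chr16:37628848-37655518, was covered over 22563 bp in K-KD, 23810 in K rep KO, 12547 in K non-rep KO, 18641 in EV and 24089 in WT. At all 9 of these regions the K non-rep KO coverage was below the K rep KO coverage, as in the bands as a whole, and at 8 of the 9 it was the lowest of the 5 lists. The exception is chr16:36688039-36709742, where K non-rep KO had 16683 bp, above the 15726 bp of EV.

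Chromosomes contributed unevenly. The bands of chromosomes 12, 16, 18 and 7 held 212, 141, 131 and 123 broad regions. Chromosome 16 held 11.2% of the broad band regions, beside 1.96% of all merged band regions, and chromosome 12 held 16.9%, beside 5.48%. Chromosomes 18 (10.4%, beside 8.87%) and 7 (9.79%, beside 7.29%) were nearer to the background. In the band of chromosome 7 peaks covered 318 kb in K-KD, 323 kb in K rep KO, 161 kb in K non-rep KO, 200 kb in EV and 282 kb in WT. The K rep KO coverage was 2.01 times that of K non-rep KO, the highest ratio of any chromosome, and the K-KD coverage was 1.59 times that of EV. Broad peaks stood at 60 of its 123 regions in K-KD and 64 in K rep KO, against 5 in K non-rep KO, 19 in EV and 46 in WT. In the band of chromosome 12 the lists covered 706 kb in K-KD, 892 kb in K rep KO, 634 kb in K non-rep KO, 709 kb in EV and 718 kb in WT. The K rep KO list stands above the others there. In the small band set of chromosome 15, with 9 regions, peaks covered 10.5 kb in K-KD, 11.2 kb in K rep KO, 10.6 kb in K non-rep KO, 13.3 kb in EV and 25.3 kb in WT, which was the highest. On the arms the regions were most frequent on chromosomes 19, 1 and 17, with 167, 118 and 113. Chromosome 19, the most gene-dense human chromosome, held 13.4% of the arm regions, beside 6.76% of all merged arm regions. Chromosome 17 held 9.10%, beside 7.37%, and chromosome 1 held 9.50%, beside 9.91%.

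**Figure D3:**
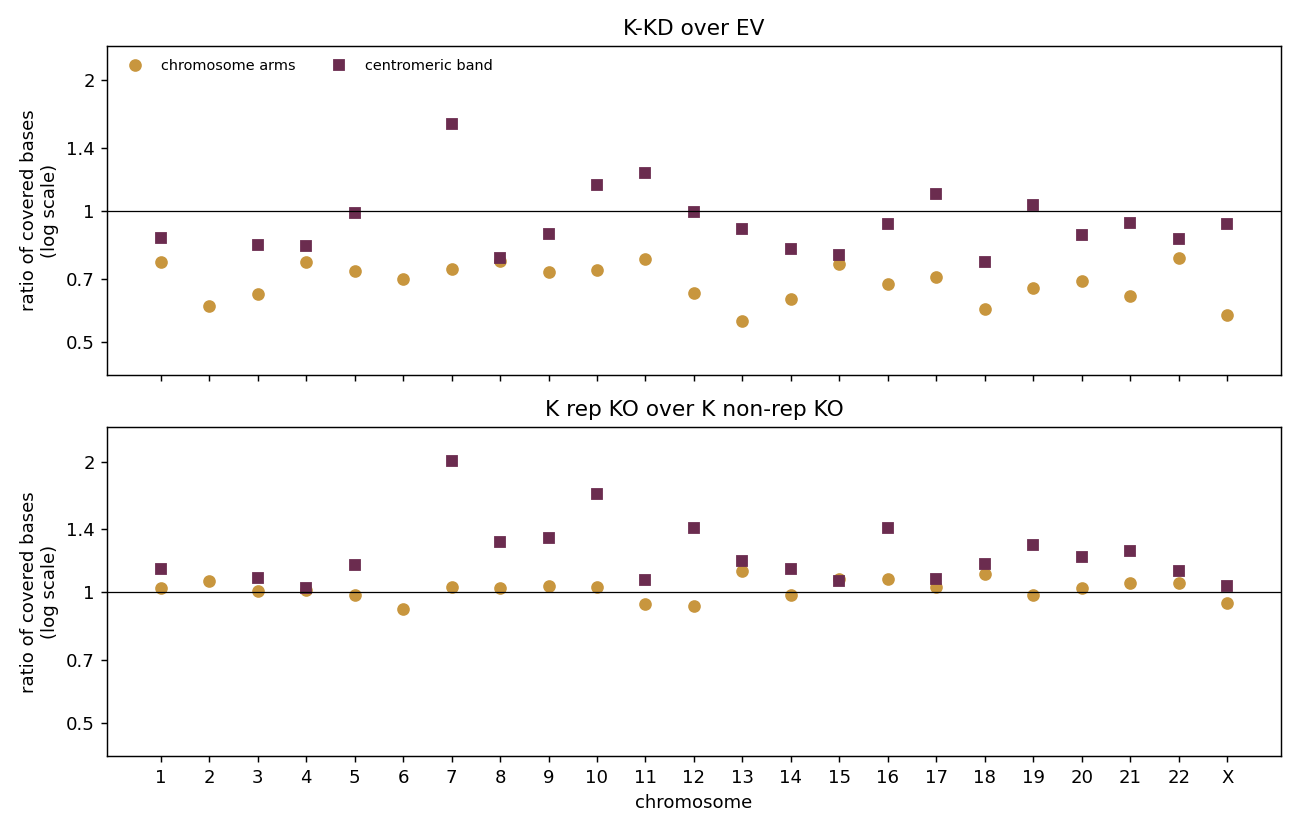
Ratio of bases covered by peaks within the broad regions (vertical axis, log scale) on each chromosome (horizontal axis), for K-KD over EV above and K rep KO over K non-rep KO below, with circles for chromosome arms and squares for centromeric bands. Every arm circle of K-KD over EV lies below 1 (0.560 to 0.779), while every band square of K rep KO over K non-rep KO lies above 1 (1.02 to 2.01).

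The knockdown was set against EV, the condition named beside it in the series. Within the broad regions peaks covered 6.73 Mb in K-KD and 8.07 Mb in EV, a ratio of 0.833, while over all peaks the ratio was 0.605. The difference lay on the arms, with 2.58 Mb in K-KD and 3.71 Mb in EV (0.697), and was small in the bands, with 4.00 Mb in K-KD and 4.22 Mb in EV (0.948). Over all peaks of these zones the ratio was 0.549 on the arms and 0.957 in the bands, so arm coverage fell short by less within broad regions than over all arm peaks. On the arms the ratio was below 1 on all 23 chromosomes, with a median of 0.698. In the bands it was below 1 on 16 of 21 chromosomes and highest on chromosome 7. A region was called changed when its covered bases differed at least 2-fold after adding 500 bp to both. It therefore needs at least 500 bp under peaks in a compared list to be called. Broad regions are all wide enough for that, while narrower merged regions can be too short. Shares of all merged regions, here and in the comparisons below, are thus not like for like. K-KD was lower at 399 regions (15.7%, beside 17% of all merged regions) and higher at 88 (3.47%, beside 4.95%). Over all zones those shares are close in value to those of all merged regions, with that limit of length. On the arms 278 were lower (22.4%, beside 17.3% of all merged arm regions) and 9 higher (0.725%, beside 4.44%). In the bands 117 were lower (9.31%, beside 12.5%) and 77 higher (6.13%, beside 11.4%). Since widths in both lists chose the regions, the ratio was also taken over the 2005 regions that are broad in K rep KO, K non-rep KO or WT, where it was 0.879 (arms 0.783, bands 0.943). The counts of changed regions were not redone this way. On the arms 314 regions are members through EV alone and 46 through K-KD alone, so the choice itself tilts the arm counts towards lower in K-KD. Counts in the comparisons below carry the same kind of limit.

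Several broad regions in genes carried a broad EV peak and no K-KD peak. Peaks elsewhere in these genes were not counted. In NSUN6, a tRNA cytosine methyltransferase gene, chr10:18555646-18559625 was covered over 0 bp in K-KD, 2416 in K rep KO, 2781 in K non-rep KO, 3763 in EV and 2547 in WT. K-KD stands alone at 0 there (log2 ratio to EV -3.09). In ATXN3, which encodes a deubiquitinase with a polyglutamine tract, chr14:92094602-92097811 was covered over 0 bp in K-KD, 2376 in K rep KO, 2447 in K non-rep KO, 3210 in EV and 1903 in WT (-2.89). In TEDC1, a gene of the tubulin delta and epsilon complex, chr14:105496896-105500617 was covered over 0 bp in K-KD, 1399 in K rep KO, 1635 in K non-rep KO, 3722 in EV and 401 in WT (-3.08). All 4 other lists had a peak in each of these 3 regions. They were picked for a low ratio of K-KD to EV, so K-KD being at 0 follows in part from the choice. The ATXN3 and TEDC1 regions are members through their EV peak alone. The lowest ratio among arm regions (-3.42) fell in chr2:60697010-60701874, within 50 kb of the pseudogene RPL26P13. This region had 0 bp in K-KD, 3995 in K rep KO, 2571 in K non-rep KO, 4865 in EV and 3143 in WT. Another, chr1:121666758-121675875, borders the band of chromosome 1 and had 329 bp in K-KD, 580 in K rep KO, 3532 in K non-rep KO, 6851 in EV and 8092 in WT (-3.15). Its order turns round when every list is limited to the 30732 peaks of the shortest, where the log2 ratio of K-KD to EV is 0.73.

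In the other direction, NUCB1, a gene for a calcium-binding Golgi protein, carried 2550 bp in K-KD, 1534 in K rep KO, 1042 in K non-rep KO, 0 in EV and 1545 in WT at chr19:48907048-48909597 (log2 ratio to EV 2.61). EV is the list without a peak there. PIWIL3, an Argonaute gene of the germline piRNA pathway, carried 2319 bp in K-KD, 1945 in K rep KO, 1927 in K non-rep KO, 342 in EV and 3480 in WT at chr22:24718761-24722240 (1.74). FBXO28, an F-box gene, carried 2702 bp in K-KD, 1156 in K rep KO, 1535 in K non-rep KO, 637 in EV and 1556 in WT at chr1:224143520-224146221 (1.49). K-KD was the highest list at NUCB1 and FBXO28, but WT was at PIWIL3. The NUCB1 and FBXO28 regions are members through their K-KD peak alone and were picked for this ratio, so K-KD being highest follows from the choice. CELSR1, a planar cell polarity cadherin gene, carried 2519 bp in K-KD, 714 in K rep KO, 351 in K non-rep KO, 660 in EV and 0 in WT at chr22:46510303-46512821 (1.38). GNMT, whose promoter window is printed above, carried 2669 bp in K-KD, 655 in K rep KO, 719 in K non-rep KO, 703 in EV and 675 in WT at chr6:42958509-42961177 (1.40). The K-KD peak at GNMT is wide but weak, with a fold enrichment of 2.68, and under a −log10 q of at least 5 it is gone and the log2 ratio becomes -1.27.

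K rep KO was set against WT. Peaks covered 8.03 Mb of the broad regions in K rep KO and 7.62 Mb in WT, a ratio of 1.05, beside 1.44 over all peaks. On the arms the ratio was 1.06, where all peaks gave 1.62, and in the bands it was 1.04, where all peaks gave 1.03. K rep KO was at least 2-fold higher at 242 regions (9.54%, beside 10.3% of all merged regions) and lower at 163 (6.42%, beside 4.23%). On the arms 135 were higher (10.9%, beside 10.1% of all merged arm regions) and 70 lower (5.64%, beside 3.52%), and in the bands 102 were higher (8.11%, beside 12.6%) and 91 lower (7.24%, beside 13.1%). Over the 2068 regions broad in K-KD, K non-rep KO or EV the ratio was 1.06. The ratio turned to 0.969 when every list was limited to the same number of peaks, so which list covers more of the broad regions depends on the length of the lists.

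The arm region with the highest ratio, chr9:66263356-66268527, lies within 50 kb of the pseudogene LOC100419926. It was covered over 4497 bp in K-KD, 3688 in K rep KO, 4150 in K non-rep KO, 4277 in EV and 0 in WT. The log2 ratio to WT was 3.07 for K rep KO and 3.22 for K non-rep KO. WT alone had no peak there. In UPF3A, a gene of nonsense-mediated mRNA decay, chr13:114292234-114295583 was covered over 1128 bp in K-KD, 3350 in K rep KO, 2044 in K non-rep KO, 1548 in EV and 0 in WT (2.94 for K rep KO). In the non-coding TBX3-AS1, antisense to a T-box factor gene, chr12:114734494-114737336 had 784 bp in K-KD, 2765 in K rep KO, 1671 in K non-rep KO, 2757 in EV and 0 in WT (2.71). UPF3A and TBX3-AS1 were highest in K rep KO and covered in every list but WT. Both regions were picked for a high ratio of K rep KO to WT, so this order follows in part from the choice. In PKIG, which encodes an inhibitor of protein kinase A, chr20:44611285-44613991 had 0 bp in K-KD, 2707 in K rep KO, 970 in K non-rep KO, 1679 in EV and 0 in WT (2.68). At PKIG the ratio becomes 0 under a −log10 q of at least 5. Within 50 kb of SUZ12, a Polycomb repressive complex gene, chr17:31919352-31922379 had 0 bp in K-KD, 3028 in K rep KO, 0 in K non-rep KO, 1076 in EV and 61 in WT (2.65). This ratio turns to -0.17 with lists of equal length.

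Lowest in K rep KO among arm regions was chr1:121666758-121675875, with 580 bp in K rep KO against 8092 in WT (log2 ratio to WT -2.99). Also low was IL3RA, the alpha subunit gene of the interleukin-3 receptor. Its region chrX:1369369-1372303 had 0 bp in K-KD and both knockouts, 88 in EV and 2935 in WT (log2 ratio to WT -2.78 for each knockout). IL3RA lies in the pseudoautosomal region, whose sequence the genome assembly also carries on chromosome Y, so the placement of its reads is uncertain, and its WT peak has a fold enrichment of 3.07 and is lost under a −log10 q of at least 5. In COL6A5, a collagen VI chain gene, chr3:130396904-130399639 had 0 bp in K-KD and both knockouts, 1232 in EV and 2736 in WT (-2.69 for both knockouts). The COL6A5 and IL3RA regions have a peak in EV and WT and in none of the perturbed lists. Each is a member through its WT peak alone and was picked for a low ratio of the knockouts to WT. The knockouts being at 0 thus follows in part from the choice, and the EV overlap at IL3RA is only 88 bp. Within 50 kb of CLINT1, a clathrin adaptor gene, chr5:157888696-157891814 had 0 bp in K-KD, 0 in K rep KO, 610 in K non-rep KO, 672 in EV and 3119 in WT (-2.86).

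K non-rep KO covered more than WT on the arms and less in the bands. Peaks covered 6.85 Mb in K non-rep KO and 7.62 Mb in WT (0.898, beside 1.27 over all peaks), and the ratio turned to 1.04 with a fold enrichment of at least 4. On the arms K non-rep KO covered 3.07 Mb and WT 2.93 Mb (1.05), and in the bands K non-rep KO covered 3.64 Mb and WT 4.56 Mb (0.798). Over all peaks of the same zones the ratio was 1.49 on the arms and 0.771 in the bands. The band ratio was below 1 on 19 of 21 chromosomes, lowest on chromosome 15 (0.418) and highest on chromosome 17 (1.26). K non-rep KO was at least 2-fold lower at 258 regions (10.2%, beside 4.63% of all merged regions) and higher at 163 (6.42%, beside 8.32%). In the bands 194 regions were lower (15.4%, beside 17.7% of all merged band regions) and 48 higher (3.82%, beside 7.43%). On the arms 113 were higher (9.10%, beside 8.39%) and 63 lower (5.07%, beside 3.58%). Over the 2190 regions broad in K-KD, K rep KO or EV the band ratio was 0.840.

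NOS3, the endothelial nitric oxide synthase gene, was covered at chr7:150999651-151002362 over 542 bp in K-KD, 0 in K rep KO, 2712 in K non-rep KO, 0 in EV and 0 in WT (log2 ratio to WT 2.68 for K non-rep KO). MAPKBP1, a scaffold gene of JNK signalling, had 216 bp in K-KD, 1860 in K rep KO, 2620 in K non-rep KO, 1865 in EV and 0 in WT at chr15:41782124-41784743 (2.64). REXO1, an RNA exonuclease gene, had 0 bp in K-KD, 287 in K rep KO, 2613 in K non-rep KO, 451 in EV and 0 in WT at chr19:1839353-1841965 (2.64). K non-rep KO was the highest list at each of these regions of NOS3, MAPKBP1 and REXO1. Each is a member through its K non-rep KO peak alone and was picked for this ratio, so that list being highest follows from the choice. FAM227A at chr22:38644820-38647447 had 1598 bp in K-KD, 768 in K rep KO, 2628 in K non-rep KO, 1652 in EV and 0 in WT (2.65). Low in K non-rep KO was DTNB, the dystrobrevin beta gene, with 845 bp in K-KD, 3131 in K rep KO, 0 in K non-rep KO, 3111 in EV and 3489 in WT at chr2:25404755-25408299 (-3.0). K non-rep KO is the list without a peak in this DTNB region, which was picked for its low ratio. DHRSX, a pseudoautosomal oxidoreductase gene, had 1400 bp in K-KD, 556 in K rep KO, 0 in K non-rep KO, 3948 in EV and 3333 in WT at chrX:2276038-2280323 (-2.94). RUBCN, a gene for an inhibitor of autophagy, had 378 bp in K-KD, 1526 in K rep KO, 0 in K non-rep KO, 1255 in EV and 2920 in WT at chr3:197742288-197745207 (-2.77). The ratios at DHRSX and RUBCN become 0 under a −log10 q of at least 5.

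Set directly against each other, the knockouts differed in the bands. Peaks covered 8.03 Mb in K rep KO, against 6.85 Mb in K non-rep KO (1.17, beside 1.13 over all peaks). In the bands these were 4.77 Mb in K rep KO, against 3.64 Mb in K non-rep KO (1.31, with 1.34 over all band peaks), and on the arms 3.11 Mb in K rep KO, against 3.07 Mb in K non-rep KO (1.01). The band ratio was above 1 on all 21 chromosomes with band regions. K rep KO was at least 2-fold higher at 278 regions (11%, beside 8.33% of all merged regions) and lower at 106 (4.18%, beside 6.2%). In the bands 206 were higher (16.4%, beside 17.2% of all merged band regions) and 46 lower (3.66%, beside 7.55%). On the arms 67 were higher (5.39%, beside 7.62%) and 58 lower (4.67%, beside 6.09%). Over the 2160 regions broad in K-KD, EV or WT, the band ratio was 1.25 and the arm ratio 1.02. The local background in the bands also differed, with a median of 5.84 reads for K rep KO against 4.52 for K non-rep KO, and its part in the result was not tested.

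Among arm regions the highest ratio between the knockouts was at PKD1, the polycystin-1 gene mutated in polycystic kidney disease. Its region chr16:2105112-2115058 was covered over 7893 bp in K-KD, 5669 in K rep KO, 0 in K non-rep KO, 9947 in EV and 1214 in WT (log2 ratio of K rep KO to K non-rep KO 3.63). PKD1 has near-identical pseudogene copies further along chromosome 16, so reads may be split among them. The region holds MIR6511B1, and the MIR6511 hairpins beside the other copies differ from it by 0 or 1 base over their shared length, so they are printed together, CG in capitals.
MIR6511B1 hairpin, chr16:2106669-2106753, minus strand: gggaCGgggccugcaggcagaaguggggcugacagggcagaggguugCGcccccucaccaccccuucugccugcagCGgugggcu
MIR6511B2 hairpin, chr16:15134075-15134145, minus strand: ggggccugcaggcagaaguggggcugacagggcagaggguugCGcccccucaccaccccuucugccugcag
MIR6511A1 hairpin, chr16:14925937-14926003, plus strand: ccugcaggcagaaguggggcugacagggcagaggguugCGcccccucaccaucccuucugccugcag

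MIR6511B1 was covered over all 85 bases in K-KD, K rep KO and EV, and over 0 in K non-rep KO and WT. MIR6511B2 was covered over 71 bases in K-KD, 0 in K rep KO, 0 in K non-rep KO, 71 in EV and 0 in WT. MIR6511A1 had 23 in K-KD, 0 in K rep KO, 0 in K non-rep KO, 67 in EV and 0 in WT. None of these 3 copies was covered in WT or K non-rep KO, and all 3 were covered in full in EV. MIR6511A4 was covered over all 67 bases in K-KD and both knockouts, over 49 in EV and over 0 in WT.

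ATF7, a gene for a stress-response transcription factor, ran the other way, with 0 bp in K-KD, 0 in K rep KO, 3403 in K non-rep KO, 1654 in EV and 2325 in WT at chr12:53525245-53528647 (log2 ratio of K rep KO to K non-rep KO -2.96). ORAI2, a store-operated calcium channel gene, had 1043 bp in K-KD, 0 in K rep KO, 2514 in K non-rep KO, 516 in EV and 629 in WT at chr7:102451421-102453934 (-2.59). The region chrX:44808525-44811133 lies within 50 kb of DUSP21, a dual-specificity phosphatase gene. It had 2609 bp in K non-rep KO and 0 in the other 4 lists (-2.64), and was lost under a −log10 q of at least 5. The non-coding LINC00501 at chr3:177293055-177295667 had 0 bp in K-KD, 0 in K rep KO, 2142 in K non-rep KO, 1248 in EV and 2613 in WT (-2.40). K rep KO had no peak in any of these regions, those at ATF7, ORAI2 and LINC00501 and the one near DUSP21. All were picked for a low ratio of K rep KO to K non-rep KO, so this follows in part from the choice. Those at ATF7, at ORAI2 and near DUSP21 are members through their K non-rep KO peak alone. Peaks elsewhere in the genes were not counted.

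EV against WT gives the difference between the conditions read as unperturbed. Peaks covered 8.07 Mb of the broad regions in EV and 7.62 Mb in WT (1.06), while over all peaks EV covered 2.05 times as much. The ratio turned to 0.874 with lists of equal length. On the arms the ratio was 1.27, above 1 on all 23 chromosomes and beside 2.57 over all arm peaks, and in the bands 0.925, beside 0.900. Over the regions broad in a list other than EV and WT, the arm ratio was 1.13. EV was at least 2-fold higher at 292 regions (11.5%, beside 20.2% of all merged regions) and lower at 148 (5.83%, beside 3.68%). On the arms 222 were higher (17.9%, beside 21% of all merged arm regions) and 29 lower (2.33%, beside 2.73%), and in the bands 68 were higher (5.41%, beside 10.5%) and 117 lower (9.31%, beside 15.7%). Higher and lower together made 440 regions for EV with WT, beside 487 for K-KD with EV, 405 for K rep KO with WT, 421 for K non-rep KO with WT and 384 between the knockouts. LHX4, a LIM homeobox gene of the pituitary, had 3023 bp in K-KD, 1413 in K rep KO, 1796 in K non-rep KO, 4194 in EV and 0 in WT at chr1:180232722-180236915 (log2 ratio of EV to WT 3.23). MAD1L1, a spindle checkpoint gene, had 1883 bp in K-KD, 2355 in K rep KO, 490 in K non-rep KO, 4251 in EV and 0 in WT at chr7:2111563-2115813 (3.25). INPP5A, an inositol phosphatase gene, had 1154 bp in K-KD, 308 in K rep KO, 1178 in K non-rep KO, 4067 in EV and 0 in WT at chr10:132748375-132752441 (3.19). EV was the highest and WT the lowest list at these regions of LHX4, MAD1L1 and INPP5A. Each is a member through its EV peak alone and was picked for this ratio, so that order follows from the choice. Within 50 kb of SMARCA4, a chromatin remodelling gene, chr19:11073232-11075741 had 0 bp in K-KD, 2302 in K rep KO, 2510 in K non-rep KO, 0 in EV and 2258 in WT (-2.46).

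**Figure D4:**
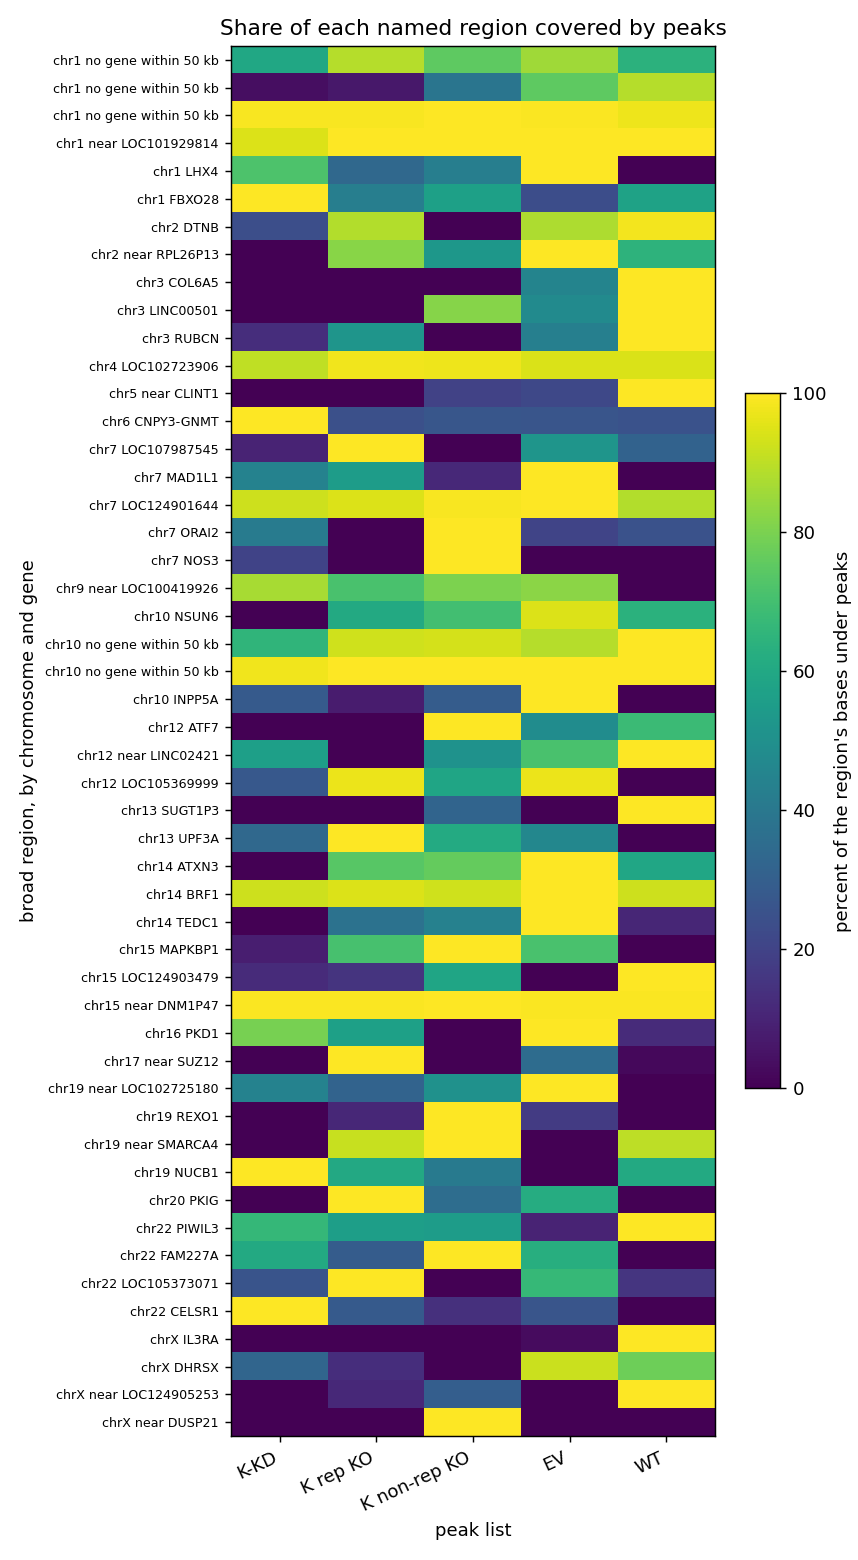
Percent of the bases of each named region under peaks (colour, 0 to 100) in each list (columns), with regions on chromosome arms as rows, labelled by chromosome and by an overlapping or near gene. BRF1 on chromosome 14 is bright in all 5 columns, PKD1 on chromosome 16 is at 0 in K non-rep KO, NSUN6, ATXN3 and TEDC1 are at 0 in K-KD, and LHX4, MAD1L1 and INPP5A are at 0 in WT. Regions picked for a ratio are extreme in the compared lists by choice.

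Against these stand regions that were wide in all lists. The widest outside the bands, chr10:42066598-42088169, was covered over 21088 bp in K-KD, 21553 in K rep KO, 21567 in K non-rep KO, 21569 in EV and 21536 in WT. It lies 467 kb from the band of chromosome 10 and has no annotated gene within 50 kb. Of the 10 widest arm regions, 4 lay within 5 Mb of a band and 4 within 5 Mb of a chromosome end. The region chr7:63748673-63764807 spans a tandem row of 11 predicted protein-coding genes (LOC124901644 and its neighbours) and was covered over 14917 bp in K-KD, 15255 in K rep KO, 15949 in K non-rep KO, 16130 in EV and 14251 in WT. In BRF1, a gene for a subunit of the RNA polymerase III initiation factor TFIIIB, chr14:105229777-105241644 was covered over 10978 bp in K-KD, 11223 in K rep KO, 11014 in K non-rep KO, 11868 in EV and 10946 in WT. All 5 lists called nearly the whole of the BRF1 region. The 182 arm regions broad in all 5 lists had a median width of 3936.5 bp, 40.7% of them overlapped a protein-coding gene and 22% lay within 5 Mb of a band. The 623 broad in 1 list had a median width of 2785 bp, with 57.8% in a protein-coding gene and 6.90% near a band. Of the regions broad in 1 list, 137 were broad in K-KD, 243 in K rep KO, 134 in K non-rep KO, 394 in EV and 215 in WT. The EV ones were on arms in 314 of 394 cases, and the K rep KO ones in the bands in 155 of 243.

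On the arms, 380 of 1242 broad regions (30.6%, Wilson interval 28.1 to 33.2) lay within 5 Mb of a chromosome end, beside 20.7% of all merged arm regions. A protein-coding gene was overlapped by 658 (53.0%), another gene alone by 151, and none by 433. By midpoint, 50.3% were in a protein-coding gene, beside 60.4% of all merged arm regions. Of the 514 whose gene has a known strand, 21.6%, 23.7%, 20.4%, 19.5% and 14.8% fell in 5 equal parts of the gene, counted from its start, while all merged regions gave 19.5%, 19.1%, 19.4%, 19.8% and 22.2%. Broad regions were thus least frequent in the part nearest the gene's end, where merged regions of any width were most frequent. In all, 636 of 19974 protein-coding genes (3.18%) held one.

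There were 9 genes with 3 or more. LMF1, a gene for a lipase maturation factor, held 4. Its region chr16:856865-859977 had 2824 bp in K-KD, 3035 in K rep KO, 2520 in K non-rep KO, 2467 in EV and 2421 in WT, while chr16:929852-932486 had 1830 bp in K-KD, 1042 in K rep KO, 1871 in K non-rep KO, 2635 in EV and 361 in WT. The lists thus ranked differently at these LMF1 regions. Its other regions are not given here, and whether regions of a gene move together was not tested. TSC2, the tuberin gene of mTOR signalling, held 3, all broad in EV alone. Its region chr16:2049292-2052103 had 651 bp in K-KD, 1115 in K rep KO, 343 in K non-rep KO, 2812 in EV and 0 in WT. BANP encodes a nuclear protein known to bind unmethylated CGCG elements at promoters. Its region chr16:87998324-88001412 had 2027 bp in K-KD, 2510 in K rep KO, 3002 in K non-rep KO, 2966 in EV and 2442 in WT, and chr16:88016458-88019480 had 0 bp in K-KD, 787 in K rep KO, 1204 in K non-rep KO, 3023 in EV and 0 in WT. PTPRN2, a phosphatase-like gene of secretory granules, also held steady and variable regions. Its region chr7:158425118-158428259 had 2998 bp in K-KD, 2809 in K rep KO, 2824 in K non-rep KO, 2850 in EV and 2679 in WT, while chr7:157747238-157749827 had 2554 bp in K-KD, 2508 in K rep KO, 2538 in K non-rep KO, 1937 in EV and 1126 in WT. MELK, a mitotic kinase gene, had 2461 bp in K-KD, 2604 in K rep KO, 2416 in K non-rep KO, 2454 in EV and 2364 in WT at chr9:36582033-36584636. A second MELK region, chr9:36576785-36580576, had 0 bp in K-KD, 1338 in K rep KO, 2197 in K non-rep KO, 860 in EV and 3792 in WT. The others were CEP72, DYNC2I2, SNX8 and the pseudoautosomal PLCXD1.

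Broad regions were rare in every gene group looked at, as they were over all protein-coding genes (3.18%). None of 16 genes in or near the imprinted domain of KCNQ1OT1 held one, nor any of 30 other imprinted genes, 64 clustered protocadherin genes, 39 HOX genes or 28 ribosomal RNA genes. At a share of 3.18%, counts of 0 in lists of this size say little about the groups. Peaks of some width touched 13, 25, 53, 23 and 18 of these, beside 14534 of 19974 protein-coding genes (72.8%). Of 240 zinc finger genes of chromosome 19, 9 (3.75%) held one, close to the 3.18% of all protein-coding genes. ZNF875 was covered over 3201 bp in K-KD, 3240 in K rep KO, 3358 in K non-rep KO, 3641 in EV and 2801 in WT at chr19:37316423-37320075. ZNF461 and ZNF567 share the region chr19:36665558-36668353, with 0 bp in K-KD, 1843 in K rep KO, 1318 in K non-rep KO, 2796 in EV and 355 in WT. ZNF114 at chr19:48274600-48278158 had 469 bp in K-KD, 3559 in K rep KO, 1847 in K non-rep KO, 3483 in EV and 2421 in WT. K-KD was the lowest list at ZNF461, ZNF567 and ZNF114. One of 390 olfactory receptor genes held a region: OR6J1 at chr14:22636565-22639751, with 2669 bp in K-KD, 3039 in K rep KO, 2774 in K non-rep KO, 3187 in EV and 2820 in WT.

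Among 49 germline and cancer-testis genes 3 (6.12%, beside 3.18% of all protein-coding genes) held a broad region, namely MAGEA4, GAGE1 and GAGE12E, cancer-testis genes of chromosome X. PIWIL3, described above, was not in this list. MAGEA4 at chrX:151913460-151916686 was covered over 1485 bp in K-KD, 1624 in K rep KO, 0 in K non-rep KO, 3227 in EV and 2649 in WT. It was broad in EV alone, and K non-rep KO is the list without a peak there. GAGE1 at chrX:49596900-49599773 had 2081 bp in K-KD, 2866 in K rep KO, 1828 in K non-rep KO, 2837 in EV and 601 in WT, and GAGE12E had 555 bp in K-KD, 1334 in K rep KO, 2245 in K non-rep KO, 2536 in EV and 1182 in WT. GAGE genes are near-identical tandem copies, so their values are uncertain. The same holds for NBPF26, NPIPB3, NPIPB4, NPIPB5 and NPIPB11, the 5 of 120 multicopy genes (4.17%) that held a region. NPIPB3 at chr16:21402199-21405207 had 2408 bp in K-KD, 2800 in K rep KO, 2929 in K non-rep KO, 2918 in EV and 2233 in WT.

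Promoter windows inside broad regions had a middling number of CpGs, as the printed ones show. Of the 63 windows, 53 (84.1%) held 10 to 30 CpGs, beside 35.8% of all 34961 windows and 67.7% of the 2527 touched by a peak of any width in any list. More than 30 CpGs were found in 2 of the 63 (E4F1 with 33 and TAF1, a TFIID subunit gene, with 32), beside 20.7% of all windows, and fewer than 10 in 8, beside 43.5%. The median was 15 CpGs, and 14 over all windows. The 63 windows belong to 59 genes, some of them tandem copies of one another, and 30 have provisional LOC names. Wholly covered were 41 windows in K-KD, 48 in K rep KO, 45 in K non-rep KO, 59 in EV and 38 in WT, and 31 in every list. A peak touched 52 of the 63 in K-KD, 53 in K rep KO, 51 in K non-rep KO, 63 in EV and 47 in WT. Of all 34961 windows, 2.81% were touched in K-KD, 2.77% in K rep KO, 2.16% in K non-rep KO, 4.63% in EV and 0.661% in WT. EV was thus highest and WT lowest over all windows too. MRPL4, a mitochondrial ribosomal protein gene, and LINC01667 were among those covered in full in all lists. GFI1, a zinc finger repressor gene of blood cell development, had 216 of its 300 bases covered in K-KD, 300 in K rep KO, 0 in K non-rep KO, 300 in EV and 130 in WT.

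**Figure D5:**
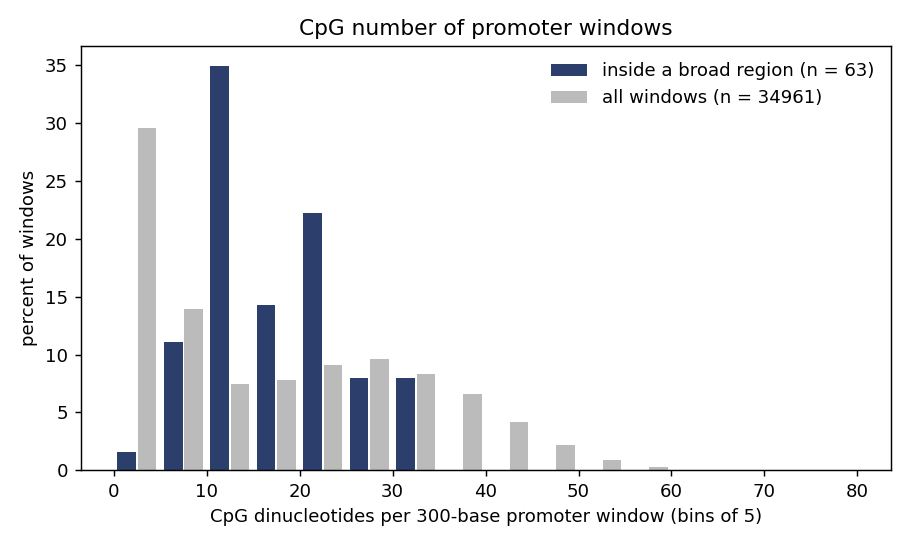
Percent of 300-base promoter windows (vertical axis) by number of CpG dinucleotides (horizontal axis, bins of 5), for the 63 windows inside a broad region (dark) and all 34961 windows (grey). The dark bars gather between 10 and 30 CpGs (84.1% against 35.8%), and stop where the grey ones continue beyond 35.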

How the data were processed

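The series holds 10 HEK293T samples, with an immunoprecipitated library and its input in all 5 conditions. The submitters' processing notes name Bowtie2, MACS2, deepTools and GRCh38. Versions, settings and how the inputs were used were not given in the sources used here. For each condition 1 narrowPeak list was deposited. Its fold enrichment is a ratio at the summit, its −log10 p and −log10 q belong to that summit, its score is a whole-number display value, and the other columns are positions, all as deposited. The lists give no read totals, so depth is known only through the summit pileups solved from fold and −log10 p (tolerance 0.001). The list named K-KD stands for the sample titled KD. Both knockout lists were assigned by their list names, since the prefixes of their peak names differ from these. There was 1 further list whose name matched no label, which was not used.

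Chromosomes 1 to 22 and X were kept, leaving out 3.56% to 5.83% of each list. Peaks of 2500 bp or more were merged over 1 bp of overlap, and peaks of any width in each list were intersected with the result (Python 3.11.15, numpy 2.4.6, pandas 2.3.3, scipy 1.17.1; figures matplotlib 3.10.9). Covered bases were compared as ratios, and per region as log2 with 500 bp added to both. Centromeric bands follow the GRCh38 cytoband map to 0.1 Mb. The pairing of conditions follows their order in the series' design text. Shares carry Wilson 95% intervals. The steps were tested on simulated lists. Genes, promoter windows and hairpins came from RefSeq tables of GRCh38.p14, with coordinates counted from 1. Exons and introns were not used here.

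Named were the 10 regions with the widest peak, the 10 widest on arms, and for each of 5 comparisons the 5 highest and 5 lowest arm regions. Genes overlapping these or holding 3 or more regions were named too, as were members of the gene lists with a region. The members, comparisons and gene lists were chosen with earlier results of these data known. Extremes at regions picked for a ratio follow in part from that choice. Alternatives were other width thresholds, stricter −log10 q or fold, lists limited to equal length, another merging distance, and leaving out the centromeric zone or chromosome X. Choosing the members on the 3 lists outside each comparison, and following named regions under stricter filters, were added after seeing the data.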

Additional observations from a re-analysis of the deposited data

Results flagged for a closer look

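The ratio of covered bases within the broad regions lay on opposite sides of 1 for perturbed lists set against unperturbed ones. It was 0.833 for K-KD over EV and 0.898 for K non-rep KO over WT, but 1.05 for K rep KO over WT. With 1 list per condition the difference between these ratios was not tested. The contrast of direction is not kept under all settings: with lists of equal length all 3 ratios were below 1 (0.878 for K-KD over EV, 0.795 for K non-rep KO over WT and 0.969 for K rep KO over WT), and with a fold enrichment of at least 4 that of K non-rep KO was 1.04. On the arms the ratios were 0.697, 1.05 and 1.06 in that order, and in the centromeric bands 0.948, 0.798 and 1.04. Both knockout ratios use the same WT list.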

How the results depend on the processing

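No paired analysis was possible because each condition has 1 list. Ratios of covered bases changed as follows. With a −log10 q of at least 5 the ratio was 0.728 for K-KD over EV, 1.11 for K rep KO over WT, 0.846 for K non-rep KO over WT and 1.31 for K rep KO over K non-rep KO. With a fold enrichment of at least 4 it was 0.688 for K-KD over EV, 1.32 for K rep KO over WT, 1.04 for K non-rep KO over WT (reversed), 1.27 for K rep KO over K non-rep KO and 1.22 for EV over WT. With lists limited to 30732 peaks it was 0.878 for K-KD over EV, 0.795 for K non-rep KO over WT, and reversed to 0.969 for K rep KO over WT and 0.874 for EV over WT. At 2000 bp or more it was 0.782 for K-KD over EV and 1.12 for EV over WT. Without the centromeric zone it was 0.697 for K-KD over EV, 1.01 for K rep KO over K non-rep KO, 1.27 for EV over WT, and reversed to 1.05 for K non-rep KO over WT. With members chosen on the other lists it was 0.879 for K-KD over EV. The K-KD ratio stayed below 1 and the ratio between the knockouts above 1 under every alternative run. The cause of these changes was not tested.

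Regions with a peak in every list numbered 1131 of 2352 with a −log10 q of at least 5, 788 of 2178 with a fold of at least 4, 1471 of 2435 with lists of equal length, 3723 of 5014 at 2000 bp, 1305 of 1453 at 3000 bp, 1149 when every list had to cover at least 50% of the region, and 1047 without the centromeric zone. Those in the centromeric zone numbered 843 at 3000 bp, where fewer regions are members. Merging over 1000 bp and leaving out chromosome X moved none of these results. Of 50 named values, the −log10 q limit left 37 on their side of 2-fold and reversed 1, the fold limit 41 and 1, and equal lengths 45 and 3. The reversed ones are GNMT (-1.27 under all 3 limits, K-KD over EV), and with equal lengths the region near SUZ12 (-0.17, K rep KO over WT) and chr1:121666758-121675875 (0.73, K-KD over EV). Depth limits all calls: a broad peak can split or fall away with few reads.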
